A study of Mus musculus with 2 samples.

Results

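The autophagy machinery was described through 40 mouse genes, taken by symbol from a list of the factors that build, load and deliver autophagosomes and matched to the gene identifiers of the deposited tables. All 40 were found among 55536 annotated genes, of which 22028 are protein coding. The cells were macrophages derived from bone marrow of the C57BL/6J strain, a primary culture of phagocytes, and the assay is given as polyA RNA-seq although the molecule field names total RNA. The single group comprises 2 libraries, replicates 1 and 2, from cells given lipid A at 100 ng/ml for 12 h, kept without it for 12 h and given 100 ng/ml again for 120 min. Lipid A is the part of bacterial lipopolysaccharide that the TLR4 receptor complex recognises. The labels call the agent lipid A in the description and lipoprotein A elsewhere, and sex and age were not collected. Both libraries carry 1 donor identifier and nothing states separate animals, so that the spread between the 2 may be technical. Cells without lipid A, or given it once, were not analysed here. Conditions were therefore not compared, and every difference given is one between these 2 libraries.

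Autophagy encloses cytoplasm, organelles or microbes in a double membrane that fuses with lysosomes. The ULK1 kinase complex starts the process, a class III PI3-kinase marks the membrane with a phosphoinositide, ATG9 vesicles and ATG2 bring lipid, and a pair of ubiquitin-like conjugation systems fixes LC3 and GABARAP proteins to the membrane, where cargo receptors bind them. In macrophages parts of the same machinery also act in the capture of intracellular bacteria, in the attachment of LC3 to phagosomes and in restraining inflammasome output.

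The proteins that end up on the membrane are first trimmed by ATG4 proteases after a glycine near the carboxyl end, and this glycine is the residue joined to lipid. The last 36 coding bases of 4 LC3 and GABARAP family genes are shown because they carry this site and show how these 4 differ there. The end of Map1lc3b, of the same family, is not shown, so no pattern of the whole family is drawn. Capitals mark the codon of the last glycine, and the sequences are from the GENCODE M21 transcripts on mm10, all on the plus strand and all in coding exon 4 of 4.
Gabarap (chr11:69994486-69994521): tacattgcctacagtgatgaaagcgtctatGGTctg
Gabarapl1 (chr6:129541129-129541164): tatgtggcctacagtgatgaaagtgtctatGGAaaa
Gabarapl2 (chr8:111952367-111952402): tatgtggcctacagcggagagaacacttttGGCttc
Map1lc3a (chr2:155277599-155277634): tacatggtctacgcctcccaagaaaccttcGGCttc
The glycine is codon 116 of 117 in the 3 GABARAP genes and codon 120 of 121 in Map1lc3a, and 1 codon follows it in each of these 4 genes.

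Every one of the 40 genes reached 1 TPM in both libraries, against 44.4% of all protein-coding genes. TPM is a length-corrected share of all transcripts in a library, and it is the scale of every level below. A level of 10 TPM in both libraries was reached by 27 of the 40 genes. The share at that level was 27.2% of all protein-coding genes and 61.3% of those with at least 1 TPM in both. The genes were therefore all detected, but most stood at ordinary levels for detected genes. Their median mean level was 15.6 TPM, against 18.2 TPM over all detected protein-coding genes. Only Gabarap and Vmp1 reached 100 TPM in both libraries, which 5.2% of protein-coding genes did. The lowest mean was that of Atg16l2, at 3.25 TPM, and 9 genes were under 10 TPM in both libraries.

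The macrophage label was checked with marker lists. All 8 macrophage markers stood between 60.5 and 9815 TPM, and all 4 markers of each of T cells, B cells, dendritic cells and stromal cells were under 1 TPM in both libraries. Of 6 neutrophil markers 3 were under 1 TPM in both and Ly6g was listed at 0, but the 6 summed to 60.7 TPM in replicate 1 and 5.47 TPM in replicate 2, with S100a8 at 25.8 and 3.72 TPM, S100a9 at 26.4 and 1.18 TPM and Ngp, a granule protein, at 7.99 and 0.40 TPM. The part of this marker difference in the differences between libraries given below was not tested. Replicate 1 held 45377715 expected counts and replicate 2 held 32112416. In bulk RNA, fewer expressing cells and less RNA per cell cannot be told apart.

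**Figure D1:**
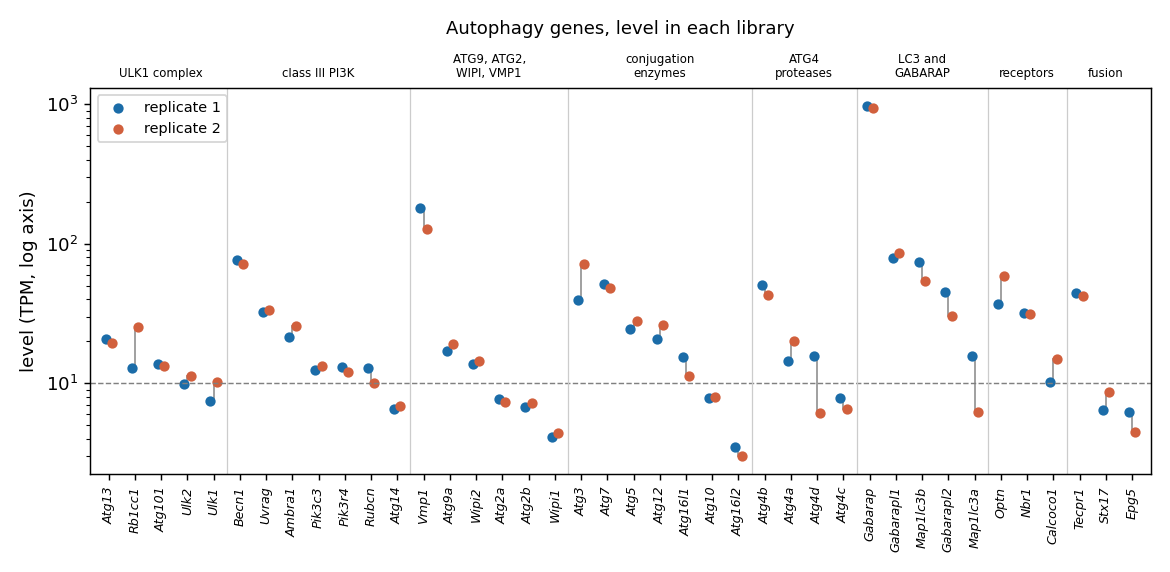
Level of each of the 40 genes in TPM on a log axis, grouped by role and ordered within a role by mean level; blue points are replicate 1, orange points replicate 2, grey lines join them and the dashed line is at 10 TPM. Gabarap stands alone at 980.6 and 947.2 TPM, Vmp1 is next, and Atg16l2, Wipi1 and Epg5 are the lowest.

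The initiation complex was expressed at a narrow range of levels, with means from 8.83 to 20.1 TPM over its 5 genes. Atg13, the adaptor that links the kinases to the scaffold, had 20.7 TPM in replicate 1 and 19.5 TPM in replicate 2. Rb1cc1, the large scaffold also called FIP200, had 12.8 and 25.4 TPM. Which of the pair led therefore differed between the libraries, while a second quantification, deposited by the authors and made without an alignment file, put Rb1cc1 first in both. In protein-coding transcripts alone Atg13 led in both libraries, with 19.1 and 17.6 TPM beside 8.40 and 11.7 TPM for Rb1cc1, and it also led there in the second quantification. Atg101, which stabilises ATG13, was close in both at 13.7 and 13.3 TPM. The kinase Ulk1 had 7.44 and 10.2 TPM and its paralogue Ulk2 had 9.88 and 11.2 TPM. Both kinases passed 10 TPM in replicate 2 and neither did in replicate 1. Ulk1, on chromosome 5 from 110784488 to 110810097, was the last of the 5 in each library.

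In the class III PI3-kinase group, Becn1, the Beclin 1 subunit on chromosome 11 from 101285952 to 101302286, led with 77.0 and 71.8 TPM, a mean of 74.4 ± 3.63 (SD, n = 2). Its partners were lower. The lipid kinase Pik3c3, or VPS34, had 12.4 and 13.2 TPM and its regulatory subunit Pik3r4, or VPS15, had 13.0 and 12.0 TPM. The 3 core subunits are thus listed at unequal levels, with Becn1 6.21-fold over Pik3c3 in replicate 1 and 5.45-fold in replicate 2. That gap depended on which transcripts were counted, as described with the isoforms.

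Becn1 is shared by 2 complexes that differ in 1 subunit. Uvrag, which directs the complex to endosomes, had 32.5 and 33.6 TPM. Atg14, which directs it to the site of autophagosome formation, had 6.52 and 6.87 TPM and was under 10 TPM in both. Uvrag exceeded Atg14 4.98-fold and 4.88-fold, and 7.93-fold and 7.39-fold in the second quantification, so the order held in both libraries and by both methods. In protein-coding transcripts alone the second quantification gave Uvrag 13.6 and 15.7 TPM and Atg14 5.03 and 6.36 TPM. The order held there too, but with a smaller gap. Rubcn, or Rubicon, a negative regulator of the UVRAG form that is needed for LC3-associated phagocytosis, had 12.8 and 10.1 TPM. Ambra1, a scaffold that ties the kinase complexes together, had 21.6 and 25.8 TPM.

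Among the genes for lipid supply, Vmp1 led at 180.1 TPM in replicate 1 and at 127.8 TPM in replicate 2, a mean of 154 ± 37.0 (SD, n = 2). VMP1 is a lipid scramblase of the endoplasmic reticulum, and its gene lies on chromosome 11 from 86583865 to 86683836. Atg9a, the scramblase of the vesicles that seed the membrane, had 16.9 and 19.2 TPM. The lipid transfer proteins Atg2a, with 7.71 and 7.33 TPM, and Atg2b, with 6.74 and 7.24 TPM, were under 10 TPM in both libraries. Of the phosphoinositide readers, Wipi2 had 13.7 and 14.4 TPM and Wipi1 had 4.12 and 4.39 TPM. Wipi2 was 3.33-fold over Wipi1 in replicate 1 and 3.27-fold in replicate 2.

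The conjugation enzymes spanned the range from Atg3 to Atg16l2. Atg7, the E1-like enzyme that activates both ubiquitin-like systems, was even between the libraries at 51.0 and 48.4 TPM. Atg3, the E2-like enzyme that loads LC3 and GABARAP onto lipid, had 39.3 and 71.7 TPM. Atg10, the E2-like enzyme of the ATG12 system, was at 7.84 and 7.98 TPM, under 10 in both. The common E1 thus stood 6.51-fold and 6.06-fold over the E2 of the ATG12 branch, while the E2 of the lipid branch was below it in replicate 1 and above it in replicate 2.

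The products of these enzymes form the complex that acts as the E3 for lipidation. Atg5 had 24.5 and 28.1 TPM, Atg12 had 20.6 and 26.3 TPM, and Atg16l1, which brings the complex to membranes, had 15.4 and 11.3 TPM. Its paralogue Atg16l2 was the lowest of all 40 genes at 3.51 and 2.98 TPM. Its levels rest on 172 and 79 reads, with exact 95% Poisson intervals from 147.3 to 199.7 and from 62.5 to 98.5 reads. Atg16l1 exceeded it 4.39-fold and 3.80-fold, 3.41-fold and 2.73-fold in the second quantification, and 10.3-fold and 10.7-fold in protein-coding transcripts alone.

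Of the ATG4 proteases, which trim LC3 and GABARAP proteins and release them from lipid, Atg4b led with 50.6 and 42.9 TPM. Atg4a had 14.4 and 20.1 TPM, Atg4c had 7.83 and 6.57 TPM, and Atg4d had 15.7 and 6.14 TPM. Atg4b was 3.52-fold over Atg4a in replicate 1 and 2.13-fold in replicate 2. The place of Atg4d was not stable, since it ranked above Atg4a in replicate 1 and last in replicate 2.

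The LC3 and GABARAP family was dominated by Gabarap. Its level was 980.6 TPM in replicate 1 and 947.2 TPM in replicate 2, a mean of 964 ± 23.6 (SD, n = 2), and the libraries differed by less than those of most family members. Gabarapl1 had 79.7 and 85.4 TPM, Map1lc3b, the LC3B commonly used as an autophagosome marker, had 74.1 and 54.2 TPM, Gabarapl2 had 44.7 and 30.3 TPM and Map1lc3a had 15.5 and 6.17 TPM. This order was the same in both libraries. Gabarap held 82.1% and 84.3% of the family's summed TPM and was 12.3-fold and 11.1-fold over Gabarapl1. In the second quantification it was lower, at 705.8 and 713.6 TPM, and held 76.1% and 79.8%. There the gene next to it was Map1lc3b in replicate 1 and Gabarapl1 in replicate 2, at 8.33-fold and 8.50-fold below.

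Set against the coding ends above, Gabarap and Gabarapl1, the genes of the family with the highest mean TPM, have the same number of codons and the glycine in the same place. Map1lc3b was 13.2-fold below Gabarap in replicate 1 and 17.5-fold below it in replicate 2, and 8.33-fold and 12.0-fold below it in the second quantification. Map1lc3b also lies inside Gm20388, a gene model on the same strand that runs on chromosome 8 from 119910841 to 124345722 and is listed at 37.2 and 27.2 TPM. Reads of Map1lc3b could be divided between both models, so its level is uncertain.

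The cargo receptors included here were all at 10 TPM or more in both libraries. Optn, optineurin, which recognises ubiquitin-coated bacteria and mitochondria, had 37.1 TPM in replicate 1 and 58.7 TPM in replicate 2. Nbr1, a receptor for ubiquitinated proteins, was nearly equal at 31.9 and 31.5 TPM. Calcoco1, a receptor for endoplasmic reticulum and Golgi, had 10.3 and 15.0 TPM.

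Among the fusion factors, Tecpr1, which binds the ATG5 conjugate at lysosomes, led with 44.6 and 42.5 TPM. The SNARE Stx17 had 6.38 and 8.60 TPM and the tether Epg5 had 6.20 and 4.48 TPM, so both were under 10 TPM in each library. Tecpr1 was 6.995-fold over Stx17 in replicate 1 and 4.94-fold in replicate 2.

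The libraries were compared by the ratio of replicate 2 to replicate 1 in expected counts after TMM scaling. All 40 genes had a mean of at least 100 reads. Of them 3 were at least 1.5-fold higher in replicate 2, against 13.5% of the 12552 genes that averaged 10 reads or more, and 4 were at least 1.5-fold higher in replicate 1, against 16.7%. In either direction 7 of 40 were apart, and 30.2% of all genes were, or 24.5% of those that averaged 100 reads or more. The median log2 ratio was -0.04 over the 40 genes and -0.03 over all genes. The median size of the log2 ratio, whatever its sign, was 0.25 over the 40 genes, 0.36 over all genes and 0.32 over those with at least 100 reads. With 2 libraries of 1 group no test of these ratios was made.

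**Figure D2:**
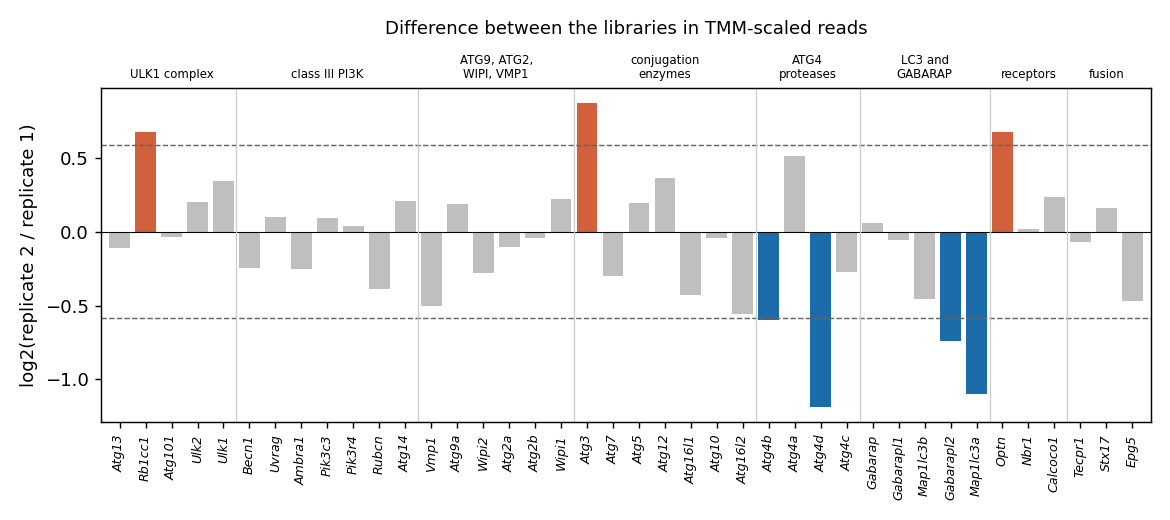
Log2 ratio of replicate 2 over replicate 1 in TMM-scaled expected counts for each of the 40 genes by role; dashed lines mark 1.5-fold, orange bars are genes past it in replicate 2 and blue bars genes past it in replicate 1. Atg3, Rb1cc1 and Optn pass upward, and Atg4d, Map1lc3a, Gabarapl2 and Atg4b pass downward.

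The 3 genes higher in replicate 2 came from 3 different steps. Atg3 was 1.83-fold higher, with 2187 reads in replicate 1 and 2713 in replicate 2 although that library was the smaller. Rb1cc1 was 1.60-fold and Optn 1.59-fold higher. All 3 also passed under DESeq2 size factors, library totals, TPM ratios and the second quantification.

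Of the 4 genes higher in replicate 1, 2 are ATG4 proteases and 2 belong to the LC3 and GABARAP family. Atg4d was 2.28-fold higher in replicate 1, with 966 and 287 reads, and Map1lc3a was 2.15-fold higher, with 337 and 106 reads. Gabarapl2 was 1.67-fold and Atg4b 1.51-fold higher. Atg4b stood just past 1.5-fold and was under it with DESeq2 size factors, and by TPM neither Atg4b nor Gabarapl2 was 1.5-fold apart. Just inside the threshold were Atg16l2 at 1.47-fold and Vmp1 at 1.42-fold in replicate 1, and Atg4a at 1.42-fold in replicate 2. Gabarap and Gabarapl1, the family members with the highest levels, had log2 ratios of 0.06 and -0.06. The neutrophil marker sum was also higher in replicate 1, and its part in these 4 differences was not tested.

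Transcript tables divided the 40 genes into 288 annotated transcripts. The leading transcript, the one with the highest TPM, was the same in both libraries for 34 genes and held at least 50% of the gene's TPM in both for 26 of them. It held at least 90% in 10. The same counts over all genes are not given here, so these describe the 40 genes only. Atg5, Epg5 and Atg3 are examples: Atg5-201 and Epg5-201 held all of their gene's TPM in both libraries, and Atg3-201 held 99.6% and 99.8%.

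Transcripts annotated as something other than protein coding, such as retained introns and targets of nonsense-mediated decay, held a median of 5.05% of a gene's TPM over the 40 genes, against 2.52% over protein-coding genes with at least 1 TPM in both libraries, a level that all 40 reached. Taken from expected counts the medians were 1.79% and 0.93%. The share was under 10% in both libraries for 25 genes. It was over 50% in both libraries for 3 genes, Becn1, Atg4d and Atg16l2. Among protein-coding genes with at least 1 TPM in both libraries 4.39% had such a share. At 10 TPM or more in both libraries it was 1 of 27 genes, Becn1, against 3.87% of protein-coding genes, which is no more than the background.

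**Figure D3:**
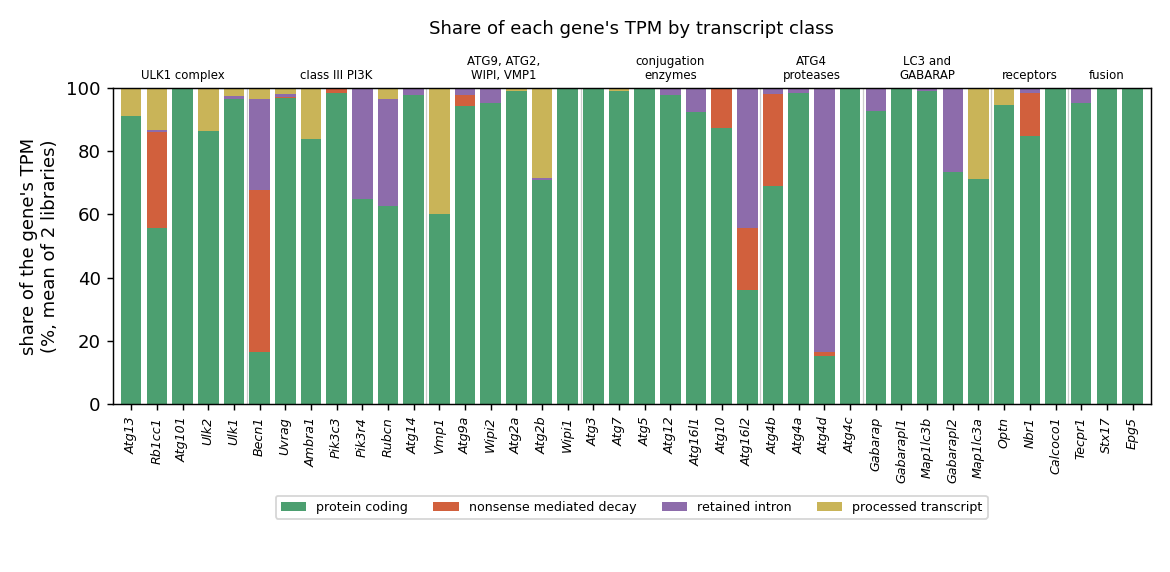
Percent of each gene's TPM by annotated transcript class, as the mean of the 2 libraries, with genes grouped by role. Becn1, Atg4d and Atg16l2 have most of their TPM outside protein-coding transcripts, while Atg5, Epg5 and Stx17 have none there.

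For Becn1 the share outside protein-coding transcripts was 83.4% in replicate 1 and 83.5% in replicate 2. Its leading transcript, Becn1-201, is annotated as a target of nonsense-mediated decay and held 36.93% and 28.97% of TPM, with 1640 and 817 reads. The retained intron transcript Becn1-211, 487 bases long, held 22.2% and 26.6% of TPM on 113 and 87.7 reads. Counted as reads instead of TPM, the share outside protein-coding transcripts was 66.1% and 57.2%. Protein-coding transcripts alone gave Becn1 12.8 and 11.9 TPM, and the ratio to Pik3c3 was then 1.06 and 0.90. In the second quantification they gave 3.97 and 3.34 TPM. The excess of Becn1 over Pik3c3 at the gene level was thus not seen in the protein-coding transcripts of either library.

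Atg4d, on chromosome 9, had 87.1% and 82.3% of its TPM outside protein-coding transcripts. The retained intron transcript Atg4d-203 led with 61.0% and 57.4%, on 552 and 139 reads. Protein-coding transcripts alone stood at 2.03 and 1.09 TPM. Atg4d overlaps Kri1 on the opposite strand, which had 23.5 and 29.5 TPM. Since the use of strand in counting is not given, reads of the 2 genes cannot be told apart where they overlap. Kri1 begins at 21273457, Atg4d-203 ends at 21273745 and the protein-coding Atg4d-201 ends at 21277772. Most of the overlap thus lies in the span of Atg4d-201 and beyond the end of Atg4d-203. Atg16l2 had 59.9% and 67.6% outside protein-coding transcripts, which left 1.41 and 0.96 TPM. Its share by reads was lower, at 32.0% and 24.4%.

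**Figure D4:**
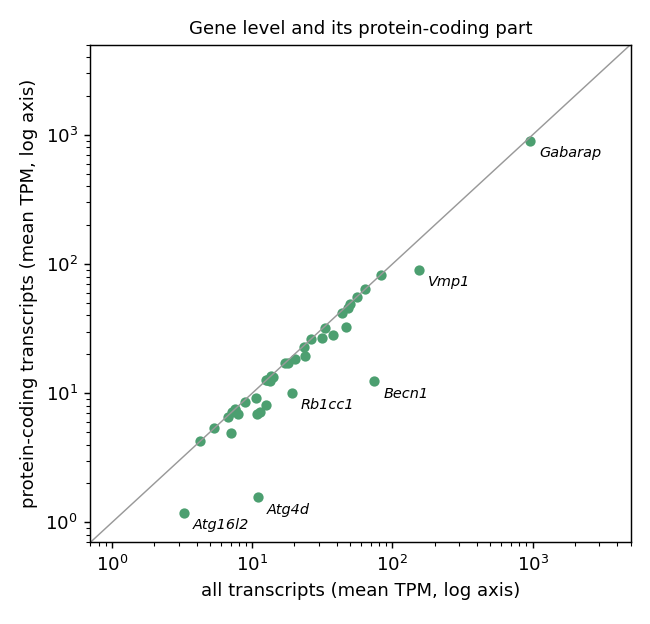
Mean TPM of the protein-coding transcripts of each of the 40 genes against the mean TPM of all its transcripts, both on log axes, with the line of equality. Most genes lie on or near the line, and Atg4d, Becn1 and Atg16l2 lie furthest below it, followed by Rb1cc1 and Vmp1.

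The difference between libraries in Vmp1 was spread unevenly over its transcripts. The processed transcript Vmp1-202, 749 bases long, had 614 reads in replicate 1 and 61.4 in replicate 2, and Vmp1-206 had 736 and 273. The leading Vmp1-201 stood at 60.1 and 46.8 TPM, and the protein-coding Vmp1-205, 326 bases long, at 30.8 and 42.6 TPM on 72.3 and 65.8 reads. Protein-coding transcripts together summed to 90.9 and 89.4 TPM, so in that sum the libraries were nearly equal. That sum depends on Vmp1-205, whose TPM rests on few reads. Vmp1-201, with 4718 and 2497 reads, was higher in replicate 1 by TPM, so the difference was not confined to the processed transcripts. The microRNA gene Mir21a lies inside Vmp1 on the same strand and was listed at 0 in both libraries. The assay is given as polyA RNA-seq, so this value does not show whether the microRNA was present. Map1lc3a was similar in part. Its processed transcript Map1lc3a-203 held 47.8% of TPM in replicate 1 and 9.74% in replicate 2, and its protein-coding transcripts stood at 8.11 and 5.56 TPM.

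The leading transcript differed between the libraries for 6 genes, Ambra1, Atg16l2, Atg2a, Rb1cc1, Stx17 and Wipi2. In Atg2a it was Atg2a-201 with 64.6% in replicate 1 and Atg2a-204 with 62.5% in replicate 2, both protein coding. In Wipi2 it was Wipi2-201 with 71.0% in replicate 1 and Wipi2-202 with 49.5% in replicate 2. The second quantification gave the same change of leader for both genes. For Rb1cc1 the leader was the protein-coding Rb1cc1-201 with 32.4% in replicate 1 and Rb1cc1-214, annotated for nonsense-mediated decay, with 36.6% in replicate 2, while the second quantification gave Rb1cc1-202 in both.

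Short transcripts made some of these shares depend on few reads. Ambra1-207, a processed transcript of 663 bases, led in replicate 2 with 32.4% of TPM on 69.0 reads and had no read in replicate 1. Atg4b-209, a transcript of 420 bases, held 35.3% and 40.2% of Atg4b's TPM on 83.9 and 56.0 reads, whereas Atg4b-201 had 82.0% and 74.3% of the gene's reads. In Stx17 the leaders were Stx17-202 with 46.2% in replicate 1 and Stx17-201 with 37.8% in replicate 2.

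For 8 genes the leader was the same in both libraries but under 50% in at least 1, namely Atg2b, Atg4b, Atg7, Atg9a, Becn1, Nbr1, Rubcn and Vmp1. Atg7-201 held 42.6% and 43.0% and Atg9a-201 held 47.0% and 44.5%, nearly tied with Atg9a-205 at 46.2% and 44.2%. The leading Vmp1-201 held 33.3% and 36.6% of TPM but 75.6% and 83.9% of reads. Rubcn-201 held 49.9% and 55.7%, Nbr1-206 39.4% and 47.9%, and Atg2b-201 42.2% and 38.4%.

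The gene levels changed little with the second quantification. No gene of the 40 was 2-fold apart between the methods in its mean TPM, and 2 were at least 1.5-fold apart. The largest fold was 1.56, for Rb1cc1, which had 22.5 and 37.2 TPM in the second quantification, and the median fold was 1.12. Of the 40 genes 30 were lower in the second quantification. How all genes compared between the methods is not given here. Transcript classes changed more in several genes. In Uvrag the share outside protein-coding transcripts was 5.11% and 1.16% in the first and 68.0% and 66.5% in the second. As the mean of the libraries it fell from 29.1% to 1.91% in Atg2b and from 37.2% to 11.3% in Rubcn. It rose from 13.5% to 37.3% in Ulk2 and from 26.6% to 45.6% in Gabarapl2.

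Of the 40 genes 19 overlap another annotated gene and 7 overlap one with at least 1 TPM in both libraries. Besides Map1lc3b and Atg4d these are Atg16l2 with Fchsd2, Atg4b with Thap4, Rubcn with Fyttd1, Atg2b with Gskip and Atg9a with Ankzf1, all on opposite strands. Fchsd2 was the most abundant of these neighbours, at 47.0 and 86.9 TPM beside the 3.51 and 2.98 TPM of Atg16l2. It ends at 101284405 on chromosome 7, and of the Atg16l2 transcripts only Atg16l2-216 reaches into it. Atg16l2-216 had no read in either library, and 0.49 and 1.24 TPM in the second quantification. Counts of such overlaps over all genes are not given here.

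Promoter sequence was available in RefSeq for 33 of the 40 genes, as the 250 bases before each annotated start on GRCm38.p6. The hexamer CACGTG, the core of the E-box bound by TFEB, TFE3 and MITF and also by other factors, was searched in them. It reads the same on both strands. It was present for 4 genes, or 12.1%, against 6.86% of 27025 genes with such a window. The median GC content of the windows was 58.8% over the 33 genes that have one and 52% over the 27025 genes. The 30 bases around each match, with CACGTG in capitals, are shown because Atg3, Atg5 and Atg7 act in a common conjugation step and Atg3 alone holds the hexamer more than once.
Atg3 (chr16:45158734-45158763, plus strand): tCACGTGtcctgggagagtcgagtCACGTG
Atg5 (chr10:44268309-44268338, plus strand): agggcggagcgcttgcCACGTGgtcttggt
Atg7 (chr6:114670952-114670981, plus strand): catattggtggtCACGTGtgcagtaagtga
Rubcn (chr16:32868437-32868466, minus strand): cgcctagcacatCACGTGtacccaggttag
The 2 copies of Atg3 begin 94 and 71 bases before the RefSeq start. The RefSeq starts used for Atg7 and Rubcn lie 27999 and 9400 bases inside the gene as GENCODE annotates it. The one used for Rubcn is next to the start of its leading transcript, Rubcn-201. The one used for Atg7 is not next to the start of any GENCODE transcript of the gene, and the leading Atg7-201 begins at 114643097. Atg7 is thus counted among the 4 genes on a window apart from the starts of its transcripts. These matches describe the sequence only, and binding was not measured.

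A further 39 genes of the wider pathway were measured from a list of 40, and Vamp7 was not analysed here. In both libraries 27 of them were at 10 TPM or more, against 27.2% of all protein-coding genes and 61.3% of those with at least 1 TPM in both. At 100 TPM or more in both were 7, against 5.2% of protein-coding genes, and 3 did not reach 1 TPM in either library. The 4 highest were Sqstm1, the p62 receptor, at 964 TPM in replicate 1 and at 2558 TPM in replicate 2, the late endosome GTPase Rab7 with 364 and 678 TPM, the interferon-inducible GTPase Irgm1 with 438 and 449 TPM, and the lysosomal SNARE Vamp8 with 497 and 292 TPM. The 3 under 1 TPM were Atg9b at 0.36 and 0.57 TPM, Stbd1 at 0.11 and 0.22 TPM, and Calcoco2 with no read in either library. For Calcoco2 a count of 0 allows up to 3 reads, which is 0.0661 CPM in replicate 1 and 0.0934 CPM in replicate 2. By the ratio of reads, 4 of 37 were at least 1.5-fold higher in replicate 2, against 13.5% of all genes that averaged 10 reads or more. In replicate 1 another 4 were at least 1.5-fold higher, against 16.7%. Neither count exceeded the share over all genes.

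The wider list shows the low and high partners of several of the 40 genes. Atg9a at 16.9 and 19.2 TPM had a paralogue, Atg9b, that was under 1 TPM in both libraries. Stx17 at 6.38 and 8.60 TPM had a SNARE partner, Vamp8, at 497 and 292 TPM, and another, Snap29, at 39.8 and 44.7 TPM. Of the E-box factors, Tfe3 had 117 and 128 TPM, Mitf 27.6 and 41.8 TPM and Tfeb 11.3 and 5.21 TPM, so Tfe3 was the highest of the 3 in both libraries.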

How the data were processed

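The members and lists were chosen with earlier results of these data known. Values were taken from 3 tables per library. Per the notes deposited with each sample, they refer to mm10 and GENCODE M21, the gene and transcript tables came from transcriptome alignments, and a second transcript table was built from reads and an index alone. The deposited gene table gives expected counts, which are estimated reads per gene and need not be whole, with TPM and FPKM as the authors computed them. The deposited transcript table gives for each transcript its percent of the gene, recomputed here from TPM, and the deposited second table gives estimated counts and TPM, summed here to genes. The bounds of the authors' deposited TPM interval, per the file headers, were used as a score and only to see whether TPM lay inside. Programs and versions, and use of strand, were not given in the sources used here.

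Total expected counts were 45377715 and 32112416. A chi-square of 219.7 per degree of freedom separated the libraries. Ratios were computed from expected counts plus 0.5 reads, with TMM scaling from edgeR 4.0.16 in R 4.3.3, for the 12552 genes averaging 10 reads or more, with DESeq2 1.42.0 size factors as an alternative. Counts were also simulated for this ratio over 55536 genes with Poisson error alone, and 200 genes averaging at least 100 reads were changed 3-fold. All 200 were recovered past 1.5-fold. That checks the computation only, since the real libraries differed by more than Poisson error. Intervals and floors cover counting error only. No p-value was computed, since the design has 1 group. Named with each library's value were the leading gene of each role, genes under 10 TPM in either library, genes 1.5-fold apart, the 4 highest and the undetected genes of the wider list, and genes with unstable transcripts; other values were chosen after they were seen. Promoters are from RefSeq GRCm38.p6. Some items are not reported here. The other scripts used Python 3.11.15, pandas 2.3.3, numpy 2.4.6, scipy 1.17.1 and matplotlib 3.10.9.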

Additional observations from a re-analysis of the deposited data

How the results depend on the processing

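All 40 genes stayed at 1 TPM or more in both libraries under every level alternative run. The count of 27 at 10 TPM was 37 at 5 TPM, 16 at 20 TPM and 18 with FPKM. It was 24 in the second quantification and 24 with protein-coding transcripts only, an alternative chosen after seeing the data, and 29 with either library alone. The median log2(TPM + 1) of 4.04 was 3.93 in the second quantification, 3.52 with FPKM, 4.23 with TPM rescaled to nuclear protein-coding genes and 3.80 with protein-coding transcripts only. It was 4.04 and 4.17 with 1 library left out. The 7 genes apart between libraries became 19 at 1.2-fold and 2 at 2-fold, and 5 to 8 under the other scalings and filters. The median log2 ratio ran from -0.10 with library totals to 0.00 by TPM. The 26 genes with 1 transcript at 50% became 17 at 75%. The median share outside protein-coding transcripts, 5.05%, was 6.83% in the second quantification, 1.79% of expected counts, chosen after seeing the data, and 4.61% to 6.42% with 1 library left out. Against the second quantification 18 gene levels moved by more than the SD of the libraries, and with FPKM 36 did. Within a library FPKM is TPM times 1 constant, so the FPKM values given here reflect a change of unit. The cause of the moves against the second quantification was not tested. Precision was limited by the 2 libraries and, for short transcripts, by few reads. No paired analysis was possible because there is 1 group.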

Other observations

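The deposited TPM of a gene was not always inside the authors' deposited interval for it. Among the 40 autophagy genes the TPM lay below the interval for 2 genes in replicate 1, Ulk1 and Atg16l2, and for 2 in replicate 2, Nbr1 and Atg16l2. It lay above the interval for Gabarap in both libraries and, in replicate 2, also for Atg12 and Atg3. Gabarap had 980.6 TPM in replicate 1 with an interval from 936.3 to 965.6, and 947.2 TPM in replicate 2 with an interval from 889.4 to 922.1. Among detected protein-coding genes 3.10% were below and 10.1% above in replicate 1, and 3.37% below and 12.7% above in replicate 2.

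Some regulators of autophagy in the wider list stood higher in replicate 1. Pink1, the kinase that marks damaged mitochondria, had 13.3 TPM in replicate 1 and 7.54 TPM in replicate 2, and by scaled reads it was 1.76-fold higher in replicate 1. Tfeb was 1.88-fold and Zkscan3, a repressor of autophagy genes, 1.70-fold higher in replicate 1. These genes were chosen after their values were seen, and no test was made.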
